A study of Rattus norvegicus with 2 samples.

Results

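A set of 9 genes of the oligodendrocyte lineage were followed on 2 two-colour rat expression arrays. They are Olig1, Olig2, Sox10, Nkx2-2, Pdgfra and Cspg4, which mark precursors, and Cnp, Mbp and Mag, which belong to myelin. The genes were listed by name and found by matching the RefSeq accession of each spot to rat gene symbols. Of the 9 listed genes, 8 were matched to a spot, among 15443 matched genes in all, and no spot was matched to Nkx2-2, a homeodomain factor of the lineage. All 8 passed the filter on dim signal on both arrays (5 precursor genes and 3 myelin genes), as did 10849 genes in all on one array and 10240 on the other.

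The cells were primary neural stem cells of the cortex of Sprague-Dawley rat embryos at embryonic day 14, grown in N2 medium with 10 ng/mL bFGF (basic fibroblast growth factor, which keeps such cells dividing). Before harvest they were transiently transfected by electroporation with 4 µg of MSCV-IRES-EGFP, called here the vector, or of the same plasmid with rat Bcl-2, a gene that blocks cell death. All groups therefore carry a plasmid with a green fluorescent reporter, and whether transfected cells were enriched is not given in the sources used here. Vector cells moved to NB medium without bFGF for 2 days were labelled with Cy5, the red channel, on the withdrawal array. Bcl-2 cells kept with bFGF are the red channel of the other array, called here the array labelled Bcl-2. Vector cells with bFGF are the green channel (Cy3) of both. Loss of bFGF and the change of medium cannot be told apart. A comparison rests on 1 array without a dye swap, so differences have no replicate check and no p-value is given.

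Oligodendrocytes wrap axons in myelin. They arise from dividing precursors that are instructed by the transcription factors Olig1, Olig2, Nkx2-2 and Sox10 and carry the PDGF receptor Pdgfra and the surface proteoglycan Cspg4 (NG2). When precursors leave the cycle they switch on Cnp and later the myelin genes Mbp and Mag, while Pdgfra and Cspg4 go down. Cultured cortical progenitors exposed to bFGF are known to express Olig2, and Pdgfra and Cspg4 are also expressed by fibroblasts and pericytes.

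Both arrays lay on 1 slide and were read in 1 scan. Between 66.1% and 72.0% of gene spots were well above background in a channel, and no gene spot was saturated. Which way the ratios run is not settled by the data. The arrays share a labelled dye orientation and control, and their log2 ratios correlated at r = -0.67 over 42877 gene spots (-0.12 with the ratio of the Feature Extraction software). Over 26861 spots bright enough in all 4 channels, the difference between the green channels, which carry the same control by their labels, had an SD of 0.40 (log2). That between green of the array labelled Bcl-2 and red of the withdrawal array had an SD of 0.14. All ratios are given as red over green. If an array's sign is turned, higher and lower change places for each of its genes, counts and medians.

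Transcripts of all 5 measured precursor genes were well above background in all 4 channels, also in the channel labelled without bFGF. Net signal is the spot's median intensity less its local background, and the 153 negative control spots had a median net signal of 60.0 (green) and 2.5 (red) on the withdrawal array and 63.5 and 35.0 on the array labelled Bcl-2. Olig1 (NM_021770), printed in 10 spots, had a mean net signal of 36141 (green) and 96819 (red) on the withdrawal array, and 33968 and 108026 on the array labelled Bcl-2. The brighter Olig2 probe (NM_001100557) had 29602 and 61031, then 19055 and 78953. All channels of these neighbouring genes lay far above the negative controls. Before normalization the median gene spot had 189 in green and 284.5 in red there, so these raw signals do not give a ratio.

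**Figure D1:**
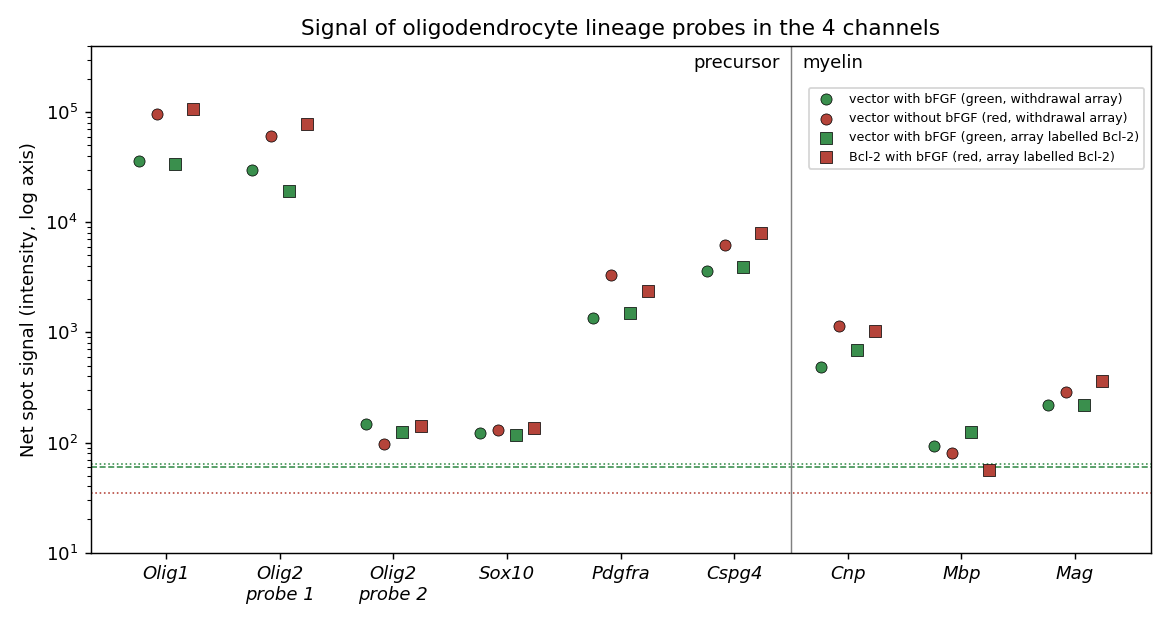
Net spot signal (intensity, log axis) of each kept probe in the 4 channels; circles are the withdrawal array and squares the array labelled Bcl-2, and points are means over spots. Lines mark the negative control medians (green dashed 60.0, green dotted 63.5, red dotted 35.0; red of the withdrawal array, at 2.5, is below the axis). Levels of different probes are not comparable with each other. Olig1 and the brighter Olig2 probe lie at 19055 or above in all channels, and Mbp lies at or below 124.

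None of the 8 measured genes was counted at 2-fold on either array, although Mbp passed that limit on the array labelled Bcl-2, at -1.77, with the Feature Extraction ratio and with the authors' deposited table. On the withdrawal array 0 of 8 were at least 2-fold higher in red, where 2.42% of all genes were, and 0 of 8 at least 2-fold lower, where 0.470% were. On the array labelled Bcl-2 the counts were again 0 of 8 higher (0.557% of all genes) and 0 of 8 lower (2.00%). A count of 0 of 8 is near each of those shares. A gene was counted if its log2 ratio was at least 1 in size and its kept probes had 1 sign. On the array labelled Bcl-2 57 genes in all were higher and 205 lower, and 358 and 690 with the Feature Extraction ratio.

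Olig1, a basic helix-loop-helix factor needed for oligodendrocyte maturation, was 1.33-fold higher in red on the withdrawal array after loess, and near 1 on the other. Its log2 ratio was 0.41 ± 0.04 (SD over 10 spots of 1 array, which measures spot noise alone) on the withdrawal array, with all 10 spots above 0 and a range from 0.29 to 0.45. On the array labelled Bcl-2 it was 0.03 ± 0.02 (SD over 10 spots), with 8 spots above 0 and 2 below. The spots of the arrays did not overlap. The value near 0 turned to -0.03 with the Feature Extraction ratio. Under median centring without loess the values were 0.88 on the withdrawal array and 0.37 on the array labelled Bcl-2. The size of both values thus depends on the normalization.

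Olig2, which commits progenitors to the lineage, was read by 2 probes that went different ways. The log2 ratio of the brighter probe was 0.07 on the withdrawal array and 0.49 on the array labelled Bcl-2, a 1.40-fold difference. The dim probe, with net signals of 148 (green) and 97.5 (red) on the withdrawal array and 125 and 141.5 on the other, had -0.47 and 0.04. Both probes thus lay lower on the withdrawal array than on the other, by 0.42 and 0.51, and they disagreed in sign on the withdrawal array. The median of the probes, used as the gene value, was -0.20 and 0.26, and the former turned to 0.03 under median centring without loess. Each probe is printed in 1 spot. The noise model of Feature Extraction gives an error of 0.20 (log2) for the bright probe's deposited ratio of 0.09 on the withdrawal array and 0.21 for its ratio of 0.54 on the other.

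Sox10, the factor that switches on myelin genes and is also found in neural crest cells, was dim. Its single spot (NM_019193) had net signals of 121 (green) and 131 (red) on the withdrawal array, and 116.5 and 134.5 on the array labelled Bcl-2, all well above background. The log2 ratios were 0.07 and 0.10. The first turned to -0.09 with the Feature Extraction ratio, whose error for this spot was 0.23, so no difference could be read for Sox10 at this signal.

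Pdgfra, the receptor for the precursor mitogen PDGF-AA, differed in opposite directions on the arrays. Its 10 spots (NM_012802) had mean net signals of 1349 (green) and 3309 (red) on the withdrawal array, and 1493 and 2377 on the array labelled Bcl-2. The log2 ratio was 0.51 ± 0.04 (SD over 10 spots) on the withdrawal array, or 1.43-fold higher in red, and -0.47 ± 0.05 on the other, or 1.39-fold lower. All 10 spots lay above 0 on one array, from 0.44 to 0.57, and all 10 below 0 on the other, from -0.54 to -0.38. Both signs held under all 8 alternative settings, and the Feature Extraction ratio gave 0.51 and -0.47. The value table repeats the Feature Extraction ratio. Both changes of the dim filter, outliers kept and the mean over probes returned the main values exactly, so these settings do not test the signs.

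Cspg4, the NG2 proteoglycan of precursors and pericytes, did not follow Pdgfra on the withdrawal array. Its 10 spots (NM_031022) had mean net signals of 3611 in green and 6249 in red there, and 3929 and 8074 on the array labelled Bcl-2. The log2 ratio was -0.01 ± 0.03 (SD over 10 spots), with 2 spots above 0 and 8 below. On the array labelled Bcl-2 it was -0.24 ± 0.03, or 1.18-fold lower in red, with all 10 spots below 0. The withdrawal value turned to 0.26 under median centring without loess, and the other kept its sign under all 8 settings. As for Pdgfra, the dim filter, outlier and probe mean settings returned the main values exactly and do not test the sign.

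Among the myelin genes, Cnp, a phosphodiesterase that appears before compact myelin, gave the clearest signal. Its single spot (NM_012809) had net signals of 484 (green) and 1155 (red) on the withdrawal array, and 698 and 1023 on the other. The log2 ratios were 0.51 and -0.44, or 1.43-fold higher and 1.35-fold lower in red. Deposited errors of the Feature Extraction ratios, 0.49 and -0.41, were 0.21 each. Both signs held under all 8 settings, but the dim filter, outlier and probe mean settings returned the main values exactly and do not test the signs.

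Mbp, a protein of compact myelin, was near background. The kept Mbp probe (NM_001025291) had net signals of 92.0 (green) and 80.0 (red) on the withdrawal array, and 124 and 56.5 on the array labelled Bcl-2, where red was not well above background. The log2 ratio was 0.16 on the withdrawal array. On the other array Mbp was 1.36-fold lower in red, a log2 ratio of -0.45 from 1 spot. A bound was sought that takes as the dim side its own signal or the floor of detected probes, whichever is larger, after scaling. Its own signal was the larger, so the bound is the measured ratio and sets no further limit. That ratio is open to dye bias. The Feature Extraction ratio was -1.77 there with an error of 0.39, which would pass the 2-fold limit. The constant of 50 added to both channels pulls ratios of such dim spots towards 0 by construction. A second Mbp probe failed the background flag in all 4 channels.

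Mag, an adhesion protein of the myelin layer next to the axon, had 1 kept spot, well above background in all 4 channels, with net signals of 219 (green) and 286.5 (red) on the withdrawal array, and 219.5 and 359 on the other. The log2 ratios were -0.08 and 0.06, turned in sign under 1 and 2 of the 8 settings. The other Mag probe, in 9 usable spots on each array, was not well above background in any channel, with mean net signals of 64.7 (green) and 2.28 (red) on the withdrawal array. The probes of Mag thus disagree on whether the transcript was detected.

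**Figure D2:**
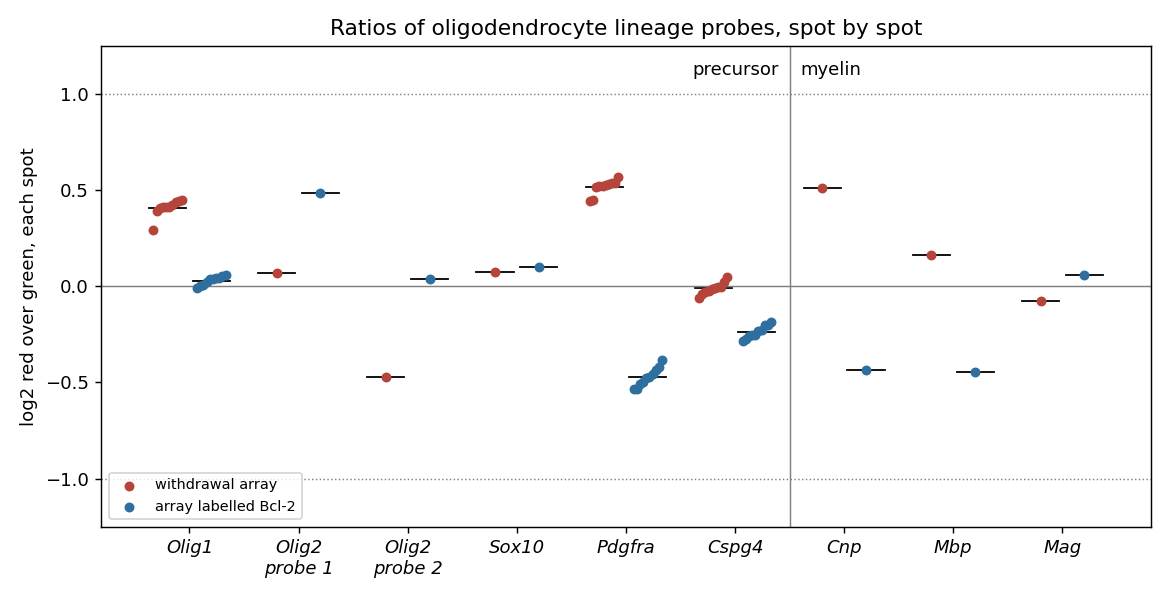
Log2 ratio of red over green for each spot of the kept probes, with the mean of a probe as a bar; spots are sorted by value, solid line at 0 and dotted lines at the 2-fold limit. Pdgfra spots lie from 0.44 to 0.57 on the withdrawal array and from -0.54 to -0.38 on the array labelled Bcl-2, and no spot reaches 1 in size.

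Set against each other, precursor and myelin genes did not separate on either array. The median log2 ratio was 0.07 over 5 precursor genes, ranging from -0.20 to 0.51, and 0.16 over 3 myelin genes, ranging from -0.08 to 0.51, on the withdrawal array. On the array labelled Bcl-2 the medians were 0.03 (range -0.47 to 0.26) and -0.44 (range -0.45 to 0.06). The ranges of the groups overlapped on both arrays, and with 3 and 5 genes of unequal brightness no test was made. With the sign turned, the medians are -0.07 and -0.16, and -0.03 and 0.44. Over all genes the medians were 0.03 and -0.01. The precursor medians turned to -0.04 and -0.03 with the Feature Extraction ratio, under which the myelin median on the withdrawal array was 0.49. With Mbp left out on the array labelled Bcl-2, where its red channel was not well above background, the myelin median there was -0.19. Pdgfra and Cnp, a precursor and a myelin gene, lay closest together of all members, at 0.51 and 0.51 on one array and -0.47 and -0.44 on the other.

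**Figure D3:**
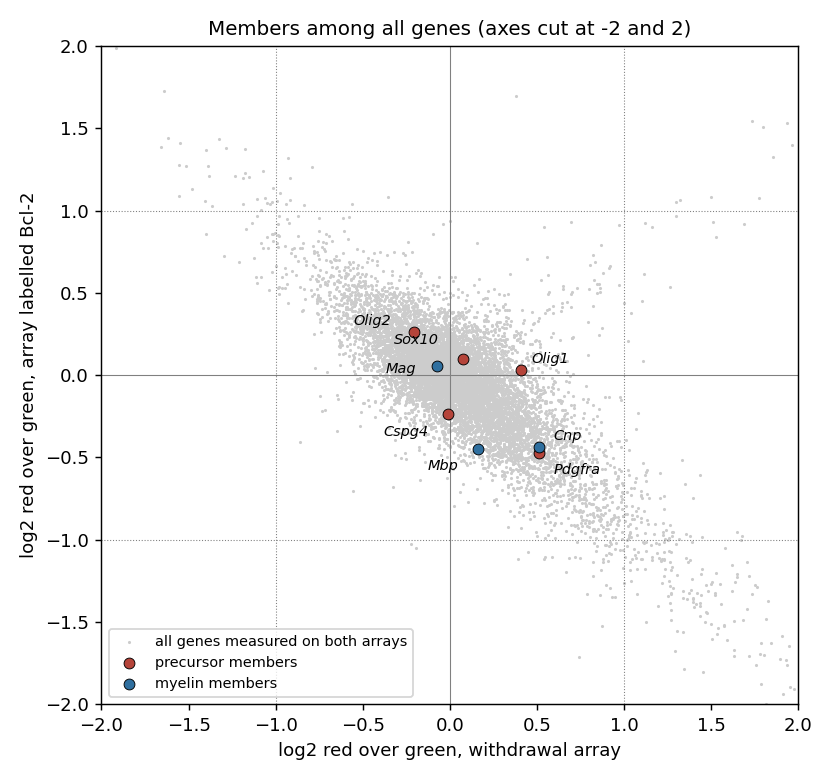
Log2 red over green of the withdrawal array (horizontal) against that of the array labelled Bcl-2 (vertical) for all genes measured on both, with axes cut at -2 and 2 and dotted lines at the 2-fold limit. Pdgfra and Cnp lie at 0.51 and about -0.45, on the diagonal along which most genes fall, while Olig1 lies at 0.41 and 0.03.

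The sequence before the annotated start of Pdgfra and Cnp is shown because their ratios lay together on both arrays. It is taken from RefSeq on build GRCr8, upstream of the outermost annotated transcript on the gene's own strand. Up to 250 bases were taken, and for Pdgfra 162 bases of the promoter window lay outside that transcript. Searched on both strands were the E-box CANNTG, the class of site that Olig factors bind, and the SOX motifs ACAAAG and ACAATG, and matches are in capitals. The Pdgfra stretch is chr14:33408605-33408766, minus strand, and the Cnp stretch chr10:86011254-86011503, plus strand.
Pdgfra: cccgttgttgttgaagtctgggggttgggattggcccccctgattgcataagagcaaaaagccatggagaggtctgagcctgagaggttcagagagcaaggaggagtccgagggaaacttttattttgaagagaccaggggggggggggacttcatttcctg
Cnp: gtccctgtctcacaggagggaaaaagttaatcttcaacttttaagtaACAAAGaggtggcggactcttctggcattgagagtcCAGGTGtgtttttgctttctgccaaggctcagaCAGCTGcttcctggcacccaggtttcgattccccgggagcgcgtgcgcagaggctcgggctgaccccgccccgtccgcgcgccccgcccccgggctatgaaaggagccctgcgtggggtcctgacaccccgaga
The 250 bases of Cnp hold 2 E-boxes and 1 SOX motif, which do not overlap. The 162 bases of Pdgfra hold 0 of either. Of 33469 rat promoter windows, 65.5% hold an E-box and 25.3% a SOX motif in 250 bases, and 50.8% and 17.2% in 162 bases, so these matches are common.

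The channels were then set against each other after scaling both arrays to the same intensity distribution. Pdgfra was 0.41 higher on the log2 scale in green of the array labelled Bcl-2 than in green of the withdrawal array, although both are labelled vector with bFGF. Cnp differed by 0.71 in the same way. Between green of the array labelled Bcl-2 and red of the withdrawal array the differences were -0.11 for Pdgfra and 0.20 for Cnp. Cspg4 and the bright Olig2 probe stood further off in that pairing, at 0.43 and -0.36. The 26861 spots well above background in all channels had an SD of 0.14 there. Red of the array labelled Bcl-2 was above green of the withdrawal array by 0.31 for Olig1 and 0.27 for Cnp. For Cspg4 and for the bright Olig2 probe it was above by 0.19. It stood at -0.23 for the dim Olig2 probe and -0.07 for Pdgfra. The same 26861 spots had an SD of 0.15 in this pairing.

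The sum of the log2 ratios of both arrays leaves what does not cancel between them. It was 0.04 for Pdgfra and 0.08 for Cnp, near the median of -0.00 over 10161 genes. It was 0.44 for Olig1, above the 95th percentile of all genes at 0.41, and -0.25 for Cspg4, inside the 5th percentile at -0.34. For Olig2 it was 0.06 as a gene, the median of probes that stood apart at 0.55 and -0.43. Gene-specific dye bias enters this sum from both arrays, and its part was not tested.

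The wider lineage was read from lists chosen by name. Of 24 further precursor genes, 17 were measured, 14 of them above 0 on the withdrawal array with a median of 0.34, against 54.3% of all genes above 0. Of these, 3 were at least 2-fold higher there, where 2.42% of all genes were. They were the endothelin receptor Ednrb at 1.38, the calcium-binding gene S100a1 at 1.47 and the matrix glycoprotein Tnr at 1.02. On the array labelled Bcl-2, 14 of 17 lay below 0, where 51.8% of all genes did, with a median of -0.18. Ednrb at -1.30 and S100a1 at -1.45 were at least 2-fold lower, where 2.00% of all genes were, and Tnr was at -0.85. The phosphatase Ptprz1, a surface molecule of precursors and radial glia, was at 0.31 and -0.30, and Bcas1, a gene of early myelinating cells, at -0.08 and -0.01.

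Of 34 further myelin and oligodendrocyte genes, 32 were matched, and 11 of these were not well above background in any channel, among them the myelin genes Mog, Mal, Cldn11, Opalin and Ermn. The 21 measured on the withdrawal array had a median of 0.08 and the 18 on the array labelled Bcl-2 a median of -0.15. At least 2-fold on the withdrawal array were 1 higher (2.42% of all genes) and 1 lower (0.470%). On the other array 1 was higher (0.557%) and 0 lower (2.00%). Aspa, the enzyme that splits N-acetylaspartate, was at least 2-fold higher on the withdrawal array at 1.07 and at -0.97 on the other. Gal3st1, which makes the myelin lipid sulfatide, was at least 2-fold lower on the withdrawal array at -1.36 and at least 2-fold higher on the other at 1.03. Plekhb1 was at 0.39 and -0.42, Qdpr, which regenerates tetrahydrobiopterin, at 0.35 and -0.35, and Septin4 at 0.37 and -0.44.

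**Figure D4:**
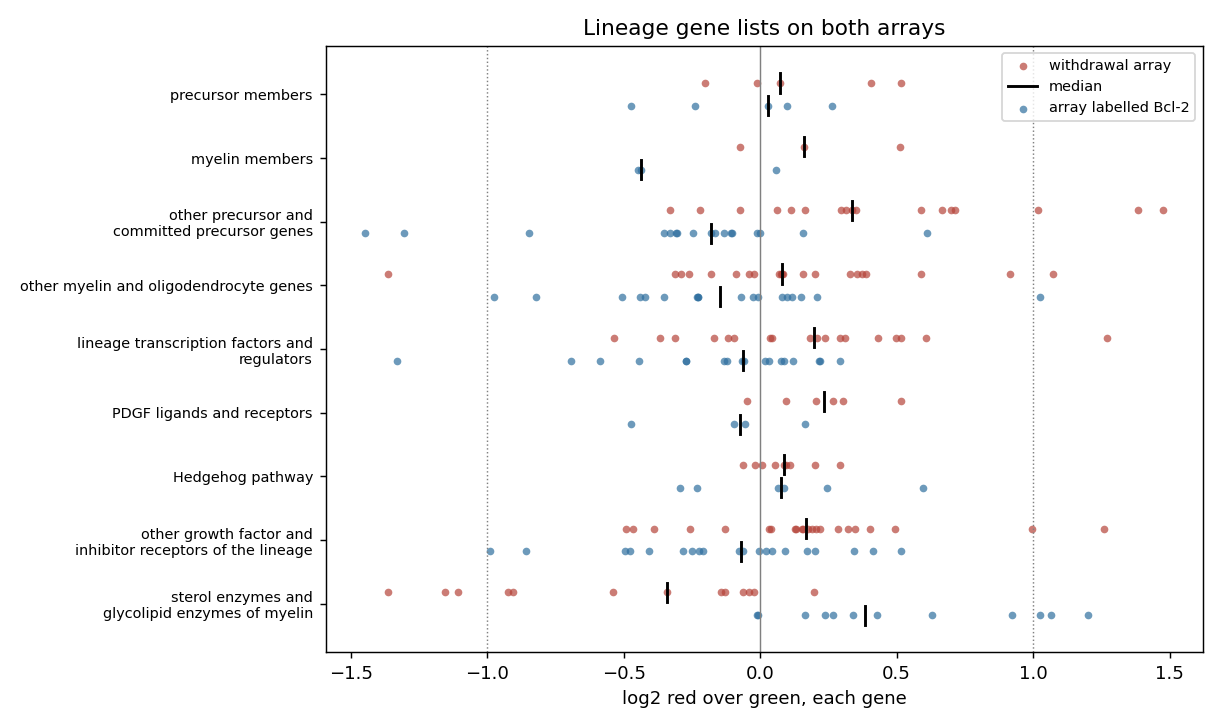
Log2 red over green of each measured gene (points) by list, with the median as a black bar and dotted lines at the 2-fold limit. The further precursor genes have medians of 0.34 and -0.18, and the sterol and glycolipid enzymes -0.34 and 0.38.

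Among 28 regulators of the lineage, 18 were measured and 5 were not well above background in any channel, including Myrf, the factor that drives myelin genes, and Nkx6-1 and Nkx6-2. The median was 0.20 on the withdrawal array and -0.06 on the array labelled Bcl-2. Of the 18, 1 was at least 2-fold higher on the withdrawal array (2.42% of all genes). On the other array 1 was at least 2-fold lower (2.00% of all genes). Id4, an inhibitor of helix-loop-helix factors that holds back oligodendrocyte differentiation, was at least 2-fold higher at 1.27 and at least 2-fold lower at -1.33. The helix-loop-helix partner Tcf4 was at 0.50 and -0.44, Nfib at 0.18 and -0.06, and the stem cell factor Sox2 at -0.12 and -0.27.

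Of the ligands of Pdgfra, Pdgfa was at 0.30 on the withdrawal array and -0.10 on the array labelled Bcl-2, and Pdgfc at -0.05 and 0.17. None of the 6 PDGF ligands and receptors (Pdgfra among them) was 2-fold on either array, and their median of 0.23 on the withdrawal array turned to -0.04 under median centring without loess. Hedgehog genes, which induce Olig2 in the ventral brain, included none at least 2-fold, of 9 measured on the withdrawal array and 6 on the array labelled Bcl-2. The ligand Shh was not well above background in any channel. The receptor Ptch1, itself a target of the pathway, was at 0.20 and -0.23, Smo at -0.02 and -0.29, and Sufu at 0.09 and 0.09. The medians of the Hedgehog list were 0.09 on the withdrawal array and 0.08 on the array labelled Bcl-2. With the Feature Extraction ratio they were -0.03 and 0.18, and under median centring without loess 0.25 and -0.05.

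Among 23 other receptors and ligands that act on the lineage, 22 were measured on the withdrawal array. There 1 was at least 2-fold higher (2.42% of all genes), the FGF receptor Fgfr3 at 1.26, and 0 lower (0.470%). On the other array 0 of 20 were at least 2-fold higher or lower (0.557% and 2.00% of all genes), and Fgfr3 was at -0.99. Fgfr1, the main receptor for bFGF in progenitors, was at 0.13 and -0.41. Adgrg1, an adhesion receptor of precursors and progenitors, was at 0.40 and -0.49, and the BMP receptor Bmpr1a at 0.04 and 0.20. Of 13 enzymes for the sterols and glycolipids of myelin measured on the withdrawal array, 12 lay below 0, where 45.7% of all genes did, with a median of -0.34. Of the 13, 3 were at least 2-fold lower (0.470% of all genes), among them Hmgcs1, a synthase of the sterol pathway, at -1.11, and Gal3st1. On the other array 10 of 12 lay above 0, where 48.2% of all genes did, with a median of 0.38, and 3 of 12 were at least 2-fold higher (0.557% of all genes), Hmgcs1 at 1.07 among them. The glycolipid enzymes Ugt8, at -0.04 and -0.01, and Sptlc2, at -0.06 and 0.17, lay near 0. Sqle was at -0.90 and 0.63, and Fdft1 at -0.13 and 0.34.

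Markers of other cells are given beside Pdgfra and Cnp, where 54.3% of all genes lay above 0 on the withdrawal array and 51.8% below 0 on the other. Of 7 fibroblast and meningeal genes, which include Pdgfra, 7 lay above 0 on the withdrawal array, from 0.04 to 0.74. Of these, 0 were at least 2-fold higher, where 2.42% of all genes were. On the other array 6 of 6 measured lay below 0, from -1.71 to -0.18, with 3 at least 2-fold lower (2.00% of all genes). Their summed normalized signal was 6802 in green and 10191 in red, then 11618 and 6003. Of 7 astrocyte genes, 6 were measured, all above 0 on the withdrawal array (0.12 to 2.61) and all below 0 on the other (-2.02 to -0.26), with Gfap not well above background. Their summed signal was 6231 and 10644, then 10426 and 6502. Of 5 neuron genes measured, 5 lay above 0 on the withdrawal array (0.22 to 1.03) and 4 below 0 on the other (-0.58 to 0.06). Their summed signals were 5905 and 8091, then 7111 and 7083. These are mostly Map2, with a mean log2 intensity of 12.6 on the withdrawal array against 8.32 for Tubb3, the next brightest. The part of these cell types in the Pdgfra and Cnp values was not tested. In such bulk RNA, fewer cells of a type and less RNA per cell cannot be told apart.

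Beside Cspg4, 5 of 8 pericyte and smooth muscle genes were measured, with Rgs5, Kcnj8 and Abcc9 not well above background. Acta2, smooth muscle actin, was the 1 gene of 5 at least 2-fold higher on the withdrawal array, at 2.19 (2.42% of all genes were). It was also the 1 at least 2-fold lower on the other, at -1.93 (2.00% of all genes), while Anpep was at -0.50 and 0.27. Their summed signal, Cspg4 included, was 5312 and 6000 on the withdrawal array and 7510 and 5944 on the other. Most of it is Cspg4 itself, whose mean log2 intensity was 12.2 and 12.5, against 8.73 and 8.80 for Acta2, the next brightest. The sum therefore says little about the other genes of the list. Beside Sox10, the Schwann and neural crest gene Erbb3 was not well above background. The 5 measured genes of that list, Sox10 included, ran from -0.50 to 0.65 and from -0.57 to 0.25. Their summed signals were 7992 and 12119, then 12093 and 8409. These are mostly Pmp22, with a mean log2 intensity of 13.2 on the withdrawal array against 7.56 for Egr2, the next brightest. Of the markers of the labelled neural stem cells, 9 of 9 matched were measured on the withdrawal array, while the array labelled Bcl-2 had 8. On the withdrawal array 6 of 9 lay above 0 (54.3% of all genes), with a median of 0.23. On the other 7 of 8 lay below 0 (51.8% of all genes), with a median of -0.42. Most but not all thus ran one way on each array. Nes was at 0.18 and -0.28, Sox2 at -0.12 and -0.27, Vim at -0.49 and 0.56, and Fabp7 at 1.26 and -0.91. Of the cortical markers, Emx2 and Pax6 were measured on both arrays, and Nkx2-1 and Gsx2, factors of the ventral forebrain, were not well above background.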

How the data were processed

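Total RNA was amplified, labelled with Cy3 or Cy5 and hybridised to Agilent arrays of design 028282, per the labels and file headers. The deposited files give spot and local background intensity as pixel medians per channel, not normalized, and a log10 ratio of processed signals with its error, made by Feature Extraction 11.5.1.1 per the file headers (8.5.1.1 per the submitters' processing notes). Other deposited columns are flags for outliers, saturation and signal well above background. A value table that the authors deposited gives 1 linear ratio per probe, with scale, centring and direction not stated. Its first column matched the withdrawal array's ratio and its second the ratios of the 2 arrays multiplied (100% of 28395 probes within 0.05 on the log2 scale, after a constant), so the quotient served as the second array's ratio. The column medians were 0.932 and 0.944.

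Intensities were background-corrected by normexp (offset 50) and normalized by loess within each array, with control spots at weight 0 in the curve, in limma 3.58.1 under R 4.3.3. Single channels were scaled with Aquantile. Outlier spots were left out, spots of a probe averaged, and a probe kept if most of its spots were well above background in at least 1 channel. A gene is the median of its kept probes, computed with pandas 2.3.3 in Python 3.11.15. Accessions were named through a RefSeq table of GRCr8, used for names and promoters alone, while the array's build is rn4; 60.4% of probes were named. The normalization was tested on simulated data. With 1 array per comparison no test was run. The members and lists were chosen with earlier results of these data known. Named genes are all members and, from each list, the genes at least 2-fold on either array and the 3 of highest mean intensity; no member was 2-fold, so no genes of like pattern were sought. Some genes that this rule names are not reported here. Alternatives were another offset, the Feature Extraction ratio, no loess, stricter and no dim filter, outliers kept, the mean over probes, and the value table.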

Additional observations from a re-analysis of the deposited data

How the results depend on the processing

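The 8 alternatives were run for the counts, the medians and each member. The count of members at least 2-fold lower on the array labelled Bcl-2 was 0 and became 1, Mbp, with the Feature Extraction log ratio (-1.77) and with the authors' deposited value table (-1.77); under the stricter dim filter Mbp had no value there. The other counts were 0 under each setting, and the medians of precursor and myelin members moved by less than 1.5-fold, although the precursor medians turned to -0.04 and -0.03 with the Feature Extraction ratio. Median centring without loess moved the median of all genes on the withdrawal array to 0.17 from 0.03. Over all genes at least 2-fold, 263 higher and 51 lower on the withdrawal array became 886 and 237 with the Feature Extraction ratio, 868 and 232 with the value table, 445 and 91 with an offset of 10, and 473 and 34 with centring; on the array labelled Bcl-2, 57 and 205 became 358 and 690 and, with the value table, 351 and 679. The signs of Olig2, Sox10, Cspg4 and Mag on the withdrawal array, and of Olig1 and Mag on the other, turned under at least 1 setting. No paired analysis was possible because each comparison has 1 array and its red-channel group is on no other. Signal over background limits Sox10, Mbp and Mag, and 1 array per comparison limits all values.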
